A study of Mus musculus with 6 samples.

Results

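The MAR1HI stage of basophil development was compared across all genes with the 2 other sorted populations of mouse bone marrow. Its members are the 2 MAR1HI libraries of 6 in all, set against the 2 BaP and the 2 MAR1INT libraries, with the mean of the BaP group and the mean of the MAR1INT group each given equal weight. All cells came from bone marrow of C57BL/6J mice, and no group carried a transgene or received a treatment according to the labels. BaP cells, called basophil precursors by the submitters, were Lin-, CD34+, c-Kit- and MAR1+. MAR1HI and MAR1INT cells were both Lin-, CD34-, c-Kit- and CD200R3+, and they were separated by a high or an intermediate signal of the antibody MAR1. The design text calls the libraries of a population biological duplicates. It does not say that they came from separate mice, so p-values measure the spread between these samples.

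Basophils are granulocytes that arm themselves with IgE through the high-affinity receptor FceRI, whose alpha chain binds IgE, whose beta chain amplifies the signal and whose gamma chain carries it into the cell. MAR1 is an antibody to the alpha chain, encoded by Fcer1a. In the marrow basophils arise from proliferating progenitors, and mature cells stop dividing, fill with granules and express cytokines such as interleukin 4. CD200R3 is an activating receptor of basophils and mast cells.

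Of 24532 listed gene IDs, 11337 were tested, those whose TPM (a length-scaled share of all transcripts) reached 1 in 2 or more libraries. A gene is called where the limma test of the difference on the log2(TPM + 1) scale gave a Benjamini-Hochberg adjusted p under 0.05 over all tested genes. A gene is a peak where both MAR1HI libraries exceeded all 4 others, and a trough where both lay below them. Peaks and troughs are picked by the values themselves, so their levels are given as a description.

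Relative to the mean of BaP and MAR1INT, MAR1HI was called higher for 229 genes (2.02% of those tested) and lower for 13 (0.115%). At an unadjusted p under 0.05 there were 1731 higher and 189 lower. Peaks numbered 1370 (12.1%) and troughs 144 (1.27%). Of the peaks, 524 cleared the highest other library by at most 0.1 log2, and 691 further genes missed it by at most 0.1, whereas 25 peaks cleared it by 1 log2 or more. Of the troughs, 62 lay below by at most 0.1 log2 and 86 further genes missed by as little. Called peaks numbered 123 (1.08%) and called troughs 7 (0.0617%). These counts did not hold when any 1 library was left out. Fewer genes were called higher without a BaP or MAR1HI library, and more without a MAR1INT library. Each such fit leaves a group with 1 library, so a change in calls cannot be told apart from a change in precision. Over these 6 fits the difference of each of the 123 called peaks was above 0, as the definition of a peak requires. With no filter on low values, 0 genes were called (1826 higher and 271 lower at an unadjusted p under 0.05).

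The balance of peaks and troughs followed the scaling of the values. The median tested gene was 0.31 log2 higher in MAR1HI in TPM, 0.18 in FPKM, -0.02 after quantile normalization and 0.04 after median-of-ratios scaling. Of peaks and troughs together, 90.5% were peaks in TPM, 82.1% in FPKM, 40.1% after quantile normalization and 50.7% after median-of-ratios scaling. Calls split as 229 higher and 13 lower in TPM, 150 and 9 in FPKM, 66 and 10 after quantile normalization, and 52 and 5 after median-of-ratios scaling. Peaks under all 4 scalings numbered 449 (3.96%) and troughs 98 (0.864%), and these held 77 of the 123 called peaks and 6 of the 7 called troughs. Against BaP alone MAR1HI was called higher for 207 genes (1.83%) and lower for 75 (0.662%), and against MAR1INT alone for 1640 (14.5%) and 260 (2.29%). These comparisons share the MAR1HI libraries. Every log2 difference below is in TPM and includes the shift of 0.31 unless stated. MAR1HI replicate 2 also exceeded replicate 1 for 85.9% of tested genes.

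**Figure D1:**
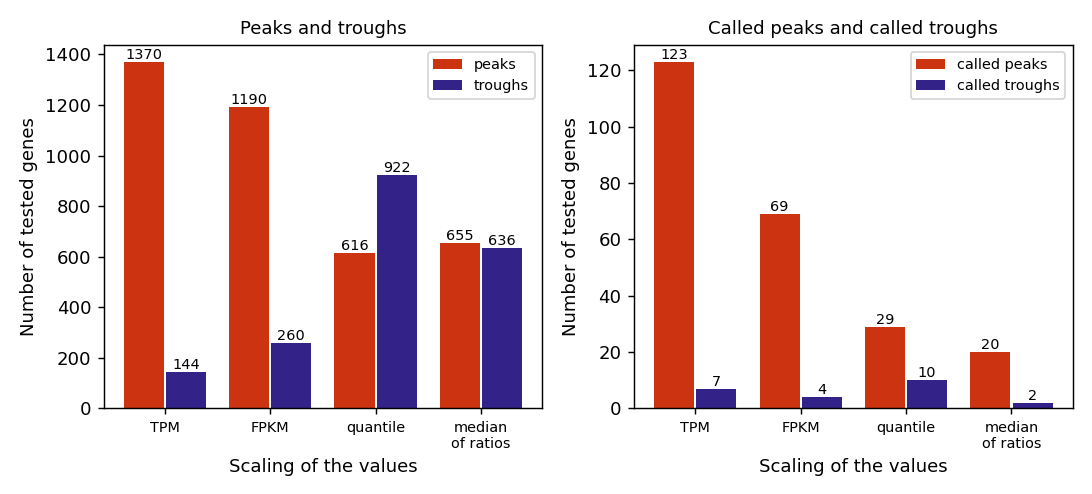
Number of tested genes that were peaks or troughs of MAR1HI (left) and that were also called by limma (right), for 4 scalings of the same values. Peaks outnumber troughs 1370 to 144 in TPM but not after quantile normalization, with 616 peaks and 922 troughs.

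The 6 libraries held between 4.75 and 5.28 gigabases aligned, as implied by the ratio of FPKM to coverage, and the number of genes at a TPM of 1 or more was 9604 and 9705 in MAR1INT against 10710 to 11544 in the 4 others. Duplicates of MAR1INT differed more (root mean square SD 0.67 log2) than those of BaP (0.42) or MAR1HI (0.43). Histone genes took 12.1% to 18.6% of TPM in MAR1HI, 15.3% to 17.7% in BaP and 7.84% to 8.24% in MAR1INT. Some genes of common use were listed at exactly 0 in whole groups: Slirp, a mitochondrial RNA-binding protein gene, was at 154 and 134 TPM in MAR1HI, against 247 and 152 in BaP and 0 in both MAR1INT libraries. Both MAR1INT libraries were at 0 for 616 tested genes, 57 of the genes called higher and 26 of the called peaks. Such a 0 can be a failed estimate, so no fold against it is given. When only the 9707 genes above 0 in all 6 libraries were tested, 300 were called higher and 29 lower.

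The genes of the sort were measured first. Fcer1a, the MAR1 antigen's gene, stood at 1211 and 1446 TPM in MAR1HI, against 776 and 892 in BaP and 534 and 422 in MAR1INT. Both MAR1HI libraries were the highest, and MAR1INT was the lowest group. The difference from the mean of the others was 1.07 log2 (SE 0.17, limma adjusted p = 0.0183), made up of 0.67 against BaP (adjusted p = 0.126) and 1.48 against MAR1INT (adjusted p = 0.00155). MAR1 signal set the gates, so this is a check of the labels and not an independent finding. It was not called after quantile normalization (adjusted p = 0.0546) or median-of-ratios scaling (adjusted p = 0.128), and the call was lost when either BaP library or either MAR1HI library was left out.

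The other receptor chains were not called. Ms4a2, the beta chain gene, was at 657 and 683 TPM in MAR1HI, against 529 and 534 in BaP and 643 and 540.1 in MAR1INT. Both MAR1HI values were the highest of 6, but by a small margin over MAR1INT replicate 1, and the difference of 0.26 log2 was not called (limma adjusted p = 0.421). Fcer1g, the gamma chain gene, was at 906 and 986 TPM in MAR1HI, against 710.5 and 644 in BaP and 900.0 and 842 in MAR1INT. Its difference of 0.30 log2 was not called either (adjusted p = 0.344).

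The other sort markers were graded rather than peaked. Cd34, a progenitor surface antigen, was at 4.67 and 7.63 TPM in MAR1HI, against 52.6 and 44.1 in BaP and 0.134 and 0 in MAR1INT. Kit, the stem cell factor receptor, was at 2.94 and 4.36 TPM in MAR1HI, against 44.9 and 38.6 in BaP and 0.0446 and 0.449 in MAR1INT. Cd200r3 ran the other way, from 821 and 845 TPM in BaP through 1602 and 1576 in MAR1HI to 2696 and 2342 in MAR1INT. In all 3 genes MAR1HI lay between the groups with no overlap, and none was called in the contrast with the mean (adjusted p = 0.957, 0.397 and 0.652).

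Promoter windows are shown for 6 called peaks: Fcer1a as the gate's own gene, Muc20 and Slc26a3 as peaks well above both groups, and Mki67, Cenpf and Tmpo as examples of genes of dividing cells. Slc26a3, Cenpf and Tmpo were chosen after their values were seen. Each is the 250 bases before the RefSeq start of the gene, 5′ to 3′ on the gene's strand, in build GRCm38.p6, and capitals mark any motif of those searched. The windows lie at chr1:173227230-173227479 (Fcer1a, minus strand), chr16:32797436-32797685 (Muc20, minus), chr12:31437969-31438218 (Slc26a3, plus), chr7:135716380-135716629 (Mki67, minus), chr1:189688087-189688336 (Cenpf, minus) and chr10:91171620-91171869 (Tmpo, minus).
Fcer1a: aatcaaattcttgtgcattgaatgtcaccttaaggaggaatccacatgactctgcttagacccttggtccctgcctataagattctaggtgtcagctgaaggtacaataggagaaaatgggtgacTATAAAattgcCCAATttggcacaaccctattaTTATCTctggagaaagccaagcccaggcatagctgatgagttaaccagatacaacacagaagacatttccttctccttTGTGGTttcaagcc
Muc20: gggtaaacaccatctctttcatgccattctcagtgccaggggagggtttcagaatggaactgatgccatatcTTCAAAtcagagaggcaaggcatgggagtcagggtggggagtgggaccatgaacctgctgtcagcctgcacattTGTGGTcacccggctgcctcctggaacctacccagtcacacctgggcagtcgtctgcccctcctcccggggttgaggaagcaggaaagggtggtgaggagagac
Slc26a3: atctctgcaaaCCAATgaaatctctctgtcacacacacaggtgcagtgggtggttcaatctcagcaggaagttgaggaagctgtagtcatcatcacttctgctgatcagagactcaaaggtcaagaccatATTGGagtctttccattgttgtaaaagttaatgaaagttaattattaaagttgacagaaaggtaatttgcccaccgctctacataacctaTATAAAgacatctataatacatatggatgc
Mki67: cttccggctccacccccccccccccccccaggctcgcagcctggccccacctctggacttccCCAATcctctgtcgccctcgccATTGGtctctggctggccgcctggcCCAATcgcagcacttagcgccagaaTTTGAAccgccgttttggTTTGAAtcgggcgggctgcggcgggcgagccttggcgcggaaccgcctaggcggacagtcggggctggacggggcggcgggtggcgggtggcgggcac
Cenpf: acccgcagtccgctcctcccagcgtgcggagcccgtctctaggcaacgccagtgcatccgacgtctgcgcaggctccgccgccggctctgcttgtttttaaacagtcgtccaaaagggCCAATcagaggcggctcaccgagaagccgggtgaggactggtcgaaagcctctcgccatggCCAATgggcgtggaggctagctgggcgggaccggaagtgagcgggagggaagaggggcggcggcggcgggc
Tmpo: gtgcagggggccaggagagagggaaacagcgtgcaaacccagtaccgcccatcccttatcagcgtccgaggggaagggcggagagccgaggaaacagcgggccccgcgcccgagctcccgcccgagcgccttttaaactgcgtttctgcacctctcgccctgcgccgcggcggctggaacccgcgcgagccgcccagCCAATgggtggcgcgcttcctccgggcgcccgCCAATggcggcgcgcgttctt

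The motifs, each read on both strands, were AGATAA for GATA factors, the RUNX motif TGTGGT, the AP-1 motif TGAGTCA, the E-box CACGTG, the box CCAAT, the STAT motif TTCNNNGAA, TATAAA as the core promoter box and TTTGAA as the cell cycle homology region. The last of these and the STAT motif can share bases. The Fcer1a window held AGATAA on the reverse strand 92 to 87 bases before the start, TGTGGT at 14 to 9, TATAAA at 125 to 120 and CCAAT at 114 to 110. The Mki67 window held CCAAT at 3 places and TTTGAA at 116 to 111 and at 98 to 93 bases. Of all 32851 windows in the reference table, 11.2% held AGATAA, 16.8% TGTGGT, 13.6% TATAAA, 37.4% CCAAT and 17.9% TTTGAA in a window that also takes in the 50 bases after the start. Such matches are descriptions of letters and not of bound sites.

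A small set of genes stood well above both other populations. Among the 123 called peaks, 36 exceeded both group means by 1 log2 or more. The rule for naming ranked called peaks that held under all 4 scalings by the smaller of the differences from BaP and MAR1INT.

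Muc20, a transmembrane mucin gene on chromosome 16 (build mm10, 32777419 to 32797435), was at 53.3 and 72.8 TPM in MAR1HI, against 6.47 and 9.41 in BaP and 18.1 and 13.5 in MAR1INT. The MAR1HI libraries lay far above all 4 others, and BaP was the lowest group. The gene's interval overlaps that of Muc4, a neighbouring mucin gene. The difference was 2.39 log2 (SE 0.31, limma adjusted p = 0.0106), with 2.84 against BaP (adjusted p = 0.00623) and 1.93 against MAR1INT (adjusted p = 0.00706). It was called under all 4 scalings, at 2.10 to 2.39 log2, as were Slc26a3, Evi2, Prss28 and Mki67.

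Slc26a3, an anion exchanger gene on chromosome 12 (31438219 to 31473919), came later in the same order and was singled out after its values were seen. It was at 67.2 and 92.1 TPM in MAR1HI, against 23.4 and 22.3 in BaP and 34.7 and 37.8 in MAR1INT. All 3 groups were apart, MAR1HI highest. The difference of 1.42 log2 (SE 0.24, adjusted p = 0.0207, limma) comprised 1.74 against BaP (adjusted p = 0.0155) and 1.10 against MAR1INT (adjusted p = 0.0272).

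Gja1 encodes the gap junction protein connexin 43 and lies on chromosome 10 (56377300 to 56390419). It was at 18.5 and 35.3 TPM in MAR1HI, against 4.70 and 3.38 in BaP and 8.27 and 6.50 in MAR1INT. The MAR1HI libraries were the highest but differed from each other the most. The difference was 2.04 log2 (SE 0.38, limma adjusted p = 0.0306) and was not called after quantile normalization (adjusted p = 0.0571) or median-of-ratios scaling (adjusted p = 0.0632).

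Itga8, the integrin alpha 8 gene on chromosome 2 (12106634 to 12301944), was at 21.8 and 28.9 TPM in MAR1HI, against 5.78 and 6.65 in BaP and 8.80 and 7.07 in MAR1INT. BaP and MAR1INT nearly met, and MAR1HI stood alone. The interval overlaps the unnamed gene E030013I19Rik. The difference was 1.71 log2 (SE 0.33, limma adjusted p = 0.0342), with 1.86 against BaP (adjusted p = 0.0401) and 1.55 against MAR1INT (adjusted p = 0.0244). The call was lost after quantile normalization (adjusted p = 0.0541) and median-of-ratios scaling (0.0625).

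Gpr174, a receptor gene on the X chromosome (107255878 to 107296769), was at 23.2 and 31.3 TPM in MAR1HI, against 0.0585 and 0.859 in BaP and 6.17 and 0.0154 in MAR1INT. Both MAR1HI libraries were high, but the MAR1INT duplicates disagreed widely. The difference was 3.85 log2 (SE 0.69, limma adjusted p = 0.0258) and was not called in FPKM (adjusted p = 0.0535), after quantile normalization (0.0761) or after median-of-ratios scaling (0.123).

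**Figure D2:**
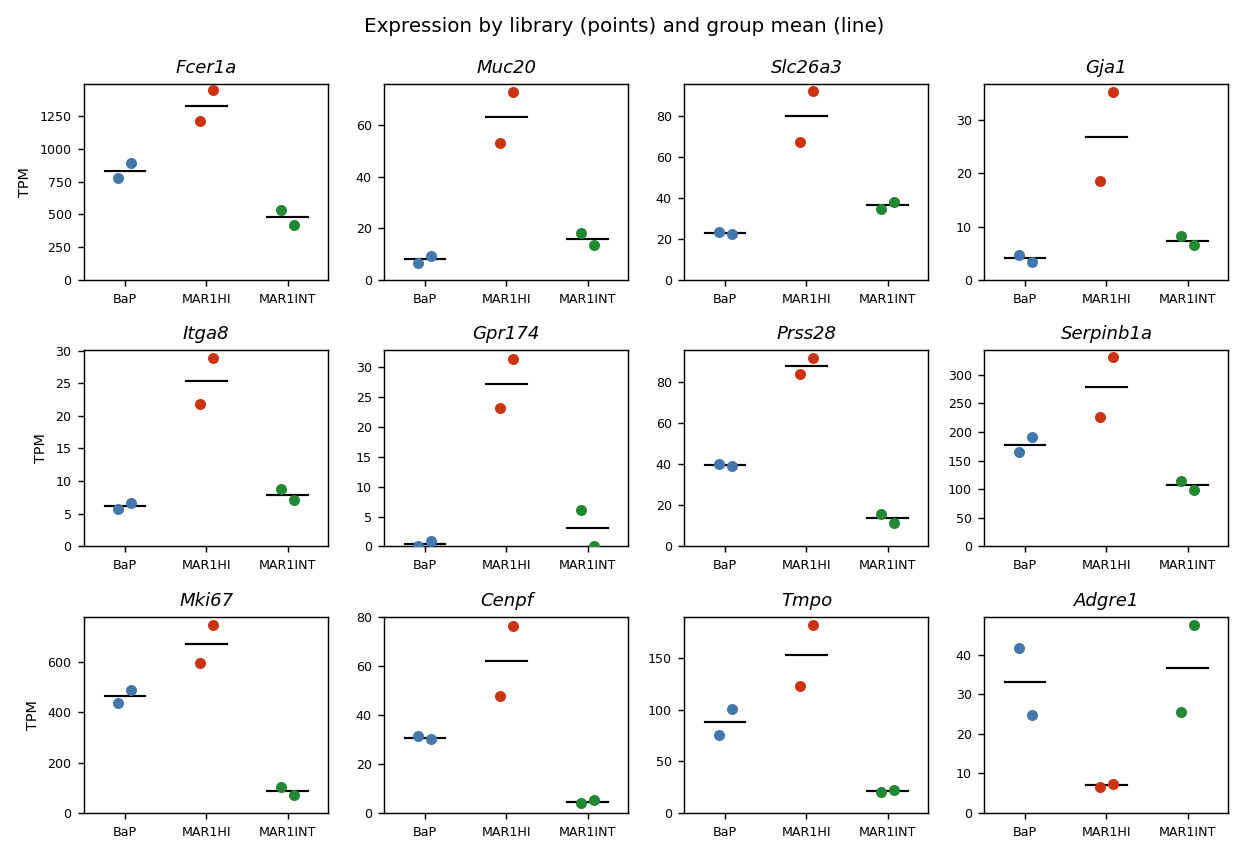
TPM by library (points) with group mean (line) for 12 genes, each on its own linear axis from 0. The MAR1HI points sit above all 4 others in 11 panels and below them in the last, Adgre1, where they are 6.51 and 7.38 TPM.

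Several named peaks were weakly expressed or lay over other genes. Bcl2l15, a BCL2 family gene, was at 14.8 and 6.84 TPM in MAR1HI, against 3.52 and 0.212 in BaP and 0 in both MAR1INT libraries. Fas, the death receptor gene, was at 11.3 and 11.1 TPM in MAR1HI, against 1.65 and 6.41 in BaP and 0 in both MAR1INT libraries. Cntf, H2-M5, Spaca9 and Olfr1393 stayed at or under 5 TPM in MAR1HI, and Omg, Stard6 and Phyhd1 at or under 13. Each of these 9 was called, with the values for MAR1INT listed at 0 in both libraries for all but Omg and Phyhd1. None of the 9 was called after quantile normalization or median-of-ratios scaling, and in FPKM the calls of Stard6 and Phyhd1 alone were kept (limma adjusted p = 0.0338 and 0.0476).

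Evi2 had the smallest adjusted p of the named peaks, but its interval on chromosome 11 overlaps Evi2a, Evi2b and Nf1. It was at 124 and 164 TPM in MAR1HI, against 19.7 and 29.3 in BaP and 0 in both MAR1INT libraries (limma adjusted p = 0.000439 for the contrast). Phf11c and Setdb2 lie 8497 bases apart on chromosome 14, and both overlap Gm45935. Phf11c was at 14.1 and 22.8 TPM in MAR1HI while Gm45935 was at 0 in both MAR1HI libraries and at 17.2 and 11.6 in MAR1INT. The levels of these overlapping genes cannot be told apart, and of the called peaks 37.4% overlapped another gene against 27.4% of tested genes.

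Among the lists, genes of cell division held the most calls. Of 42 genes of the G2 and mitosis list, 32 were called higher, where 2.02% of all tested genes were, and 23 were peaks, where 12.1% were. None was called lower. The list's median difference was 1.76 log2, beside 0.31 for all tested genes, and 1.57, 1.37 and 1.47 in FPKM, after quantile normalization and after median-of-ratios scaling, with 26, 14 and 12 called.

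These genes were low in MAR1INT more than they were high in MAR1HI. The median TPM of the list was 69.3 and 89.6 in MAR1HI, against 63.3 and 60.8 in BaP and 8.11 and 8.52 in MAR1INT. BaP and MAR1HI were thus close, and MAR1INT stood far below. Against MAR1INT 41 of 42 were called higher, beside 14.5% of all tested genes. The median difference was 3.10 log2 against MAR1INT and 0.34 against BaP, beside 0.36 and 0.24 for all tested genes. Over the 39 members above 0 in all 6 libraries it was 3.07 and 0.34. Limma called 0 of 42 against BaP (2 at an unadjusted p under 0.05). After quantile normalization and median-of-ratios scaling the median against BaP was 0.05 and 0.03, beside 0.02 and -0.04 for all tested genes. When either BaP library or either MAR1HI library was left out, 0 of 42 were called higher in the contrast, and when either MAR1INT library was left out 41 were.

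Mki67, whose protein coats chromosomes in dividing cells, was at 598 and 748 TPM in MAR1HI, against 438 and 490.4 in BaP and 101 and 69.3 in MAR1INT. The 3 groups did not overlap, with MAR1INT by far the lowest. Its difference was 1.75 log2 (SE 0.20, limma adjusted p = 0.00807), and that against BaP alone was 0.53 (adjusted p = 0.288).

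Ndc80, a subunit of the kinetochore's microtubule-binding complex, was at 64.9 and 97.8 TPM in MAR1HI, against 48.0 and 50.7 in BaP and 3.02 and 3.07 in MAR1INT. The difference from the mean was 2.5 log2 (SE 0.28, limma adjusted p = 0.00807). Cenpf, a kinetochore protein gene chosen after its values were seen, was at 47.8 and 76.5 TPM in MAR1HI, against 31.3 and 30.1 in BaP and 3.85 and 5.21 in MAR1INT. In both genes MAR1HI replicate 2 was the highest library. Ccnb1, the cyclin B1 gene, was called but was no peak: it was at 119 and 168 TPM in MAR1HI, against 97.1 and 128 in BaP and 4.10 and 7.09 in MAR1INT. Here BaP and MAR1HI overlapped.

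The motif search covered 35 of the 42 list members (83.3%). CCAAT was in 25 of them (71.4%) and TTTGAA in 25 (71.4%), beside 37.4% and 17.9% of all windows. The latter windows belong to 27025 reference genes, tested here or not, and a gene can have several. The shares over tested genes alone are not given. For the called peaks as a set no share is given, because only 93 of 123 (75.6%) had a window.

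Of 36 genes of the S phase list, 8 were called higher, where 2.02% of all tested genes were, and 4 were peaks, a share near the 12.1% of all tested genes. In FPKM 6 were called, and after quantile normalization and median-of-ratios scaling 1 each. When either BaP library or either MAR1HI library was left out 0 were called, and without MAR1INT replicate 1 or replicate 2 there were 26 and 28. The median was 1.22 log2, made up of 2.59 against MAR1INT and -0.14 against BaP. Over the 27 members above 0 in all 6 libraries it was 2.52 against MAR1INT and -0.064 against BaP. Limma called 0 of 36 against BaP (0 at an unadjusted p under 0.05). Pcna, the sliding clamp of DNA replication, was at 402 and 499.8 TPM in MAR1HI, against 412 and 434 in BaP and 115 and 109 in MAR1INT (1.04 log2, limma adjusted p = 0.0197, but 0.0756 after median-of-ratios scaling). Lig1, the replicative DNA ligase gene, was at 121 and 119 TPM in MAR1HI, against 154 and 135 in BaP and 3.85 and 10.1 in MAR1INT. Both show a like level in BaP and MAR1HI and a low one in MAR1INT.

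**Figure D3:**
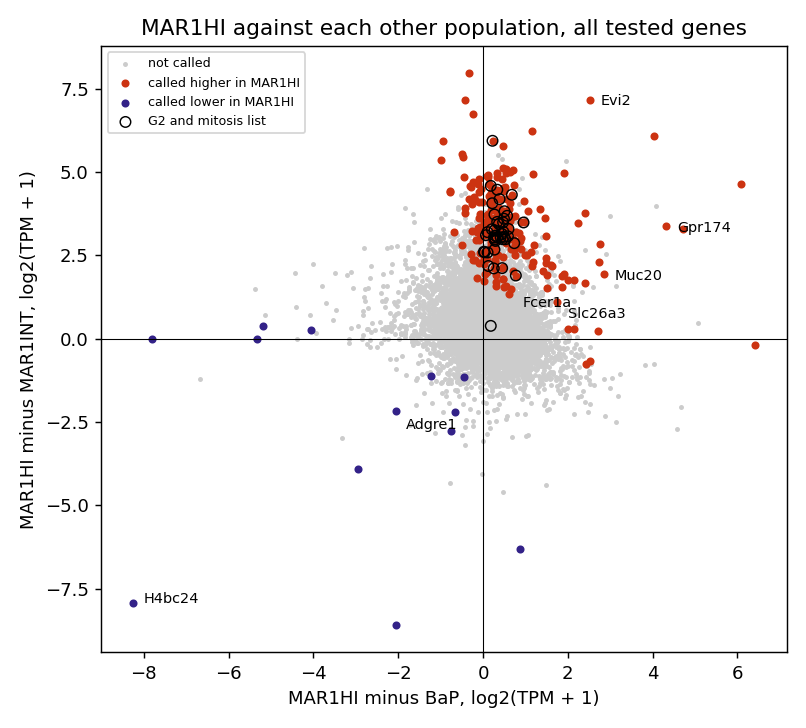
Each point is 1 tested gene, with its difference of MAR1HI from BaP on the horizontal axis and from MAR1INT on the vertical axis, both on the log2(TPM + 1) scale. Circled G2 and mitosis genes lie near 0 on the horizontal axis (median 0.34) and high on the vertical axis (median 3.10), while Muc20 and Gpr174 are high on both.

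The same split ran through the calls as a whole. Of 229 genes called higher, 211 (92.1%) had a MAR1HI level nearer BaP than MAR1INT, beside 57.1% of all tested genes, and 16 were nearer MAR1INT. Of the 123 called peaks, 50 exceeded the BaP mean by under 0.5 log2. Over the 80 called peaks above 0 in all 6 libraries, the median difference was 0.49 log2 against BaP and 2.99 against MAR1INT. Of the 123, 20 (16.3%) belonged to the G2 and mitosis or S phase lists, which held 0.688% of all tested genes.

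Of 18 granule and effector genes tested, 3 were called higher, beside 2.02% of all tested genes, and 2 were peaks, a share near the 12.1% of all tested genes. The calls were Serpinb1a, Ctsg and Il4, which also belongs to the cytokine list below. In FPKM 2 were called, after quantile normalization 1 and after median-of-ratios scaling 0. Serpinb1a, an inhibitor of neutrophil-type serine proteases, was at 225 and 331 TPM in MAR1HI, against 165 and 191 in BaP and 115 and 99.0 in MAR1INT (0.98 log2, limma adjusted p = 0.048, but 0.0904 after quantile normalization and 0.0889 after median-of-ratios scaling). Ctsg, the cathepsin G gene, was at 925 and 937 TPM in MAR1HI, between 1508 and 1475 in BaP and 105 and 96.5 in MAR1INT. It was called (1.26 log2, limma adjusted p = 0.00807, but 0.0889 after median-of-ratios scaling) without being a peak. Prss28, a tryptase-family serine protease gene, is not in this list and was singled out after its values were seen. It was at 83.4 and 91.3 TPM in MAR1HI, against 39.8 and 39.1 in BaP and 15.8 and 11.6 in MAR1INT. Its MAR1HI values were the highest and close together (1.86 log2, adjusted p = 0.0112).

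Of 13 cytokine and chemokine genes tested, 2 were called higher, beside 2.02% of all tested genes, and 0 were peaks, beside 12.1%. The calls were Il4, counted above among the granule and effector genes too, and Ccl3. Both were lost in FPKM (limma adjusted p = 0.0707 and 0.0986), after quantile normalization (0.0937 and 0.156) and after median-of-ratios scaling (0.151 and 0.244). Against BaP alone 7 of the 13 were called higher, beside 1.83% of all tested genes. Against MAR1INT alone 2 were called higher, a share near the 14.5% of all tested genes, and 3 lower, beside 2.29%. Il4, the interleukin 4 gene, was at 128 and 172 TPM in MAR1HI, against 32.0 and 41.2 in BaP and 104 and 143 in MAR1INT. MAR1HI and MAR1INT overlapped, and BaP was low (2.0 log2 against BaP, limma adjusted p = 0.00822, and 0.28 against MAR1INT, adjusted p = 0.524). Ccl3, a chemokine gene, was at 906 and 1123 TPM in MAR1HI, against 144 and 212 in BaP and 1544 and 1651 in MAR1INT. It was called (0.93 log2, adjusted p = 0.0445) with MAR1HI between the other groups.

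Of 30 genes of the IgE receptor and its proximal signalling, Fcer1a was the 1 called, beside 2.02% of all tested genes, and 5 were peaks, beside 12.1%. After quantile normalization and median-of-ratios scaling 4 and 3 were peaks, and 0 were called. The list's median was 0.19 log2, below the 0.31 of all tested genes. Limma called 0 of 29 surface receptor genes (10 higher and 1 lower at an unadjusted p under 0.05) and 0 of 29 genes of chemokine receptors, adhesion and migration (10 and 3) in the contrast with the mean. Against BaP alone, however, 14 of the surface receptor genes were called higher (1.83% of all tested genes were) and 0 lower. Against MAR1INT alone 1 was called higher (14.5% of all tested genes were) and 9 lower (2.29%). Of the adhesion and migration genes 12 were called higher and 2 lower (0.662% of all tested genes were) than in BaP, and 2 higher and 8 lower than in MAR1INT. Cd69, an early activation antigen, was an uncalled peak at 55.9 and 81.2 TPM in MAR1HI, against 20.6 and 29.3 in BaP and 33.5 and 45.4 in MAR1INT (1.09 log2, adjusted p = 0.0867). Lat, a signalling adaptor, was another, at 64.7 and 96.5 TPM in MAR1HI, against 33.4 and 40.0 in BaP and 56.0 and 48.1 in MAR1INT (0.84 log2, adjusted p = 0.13).

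**Figure D4:**
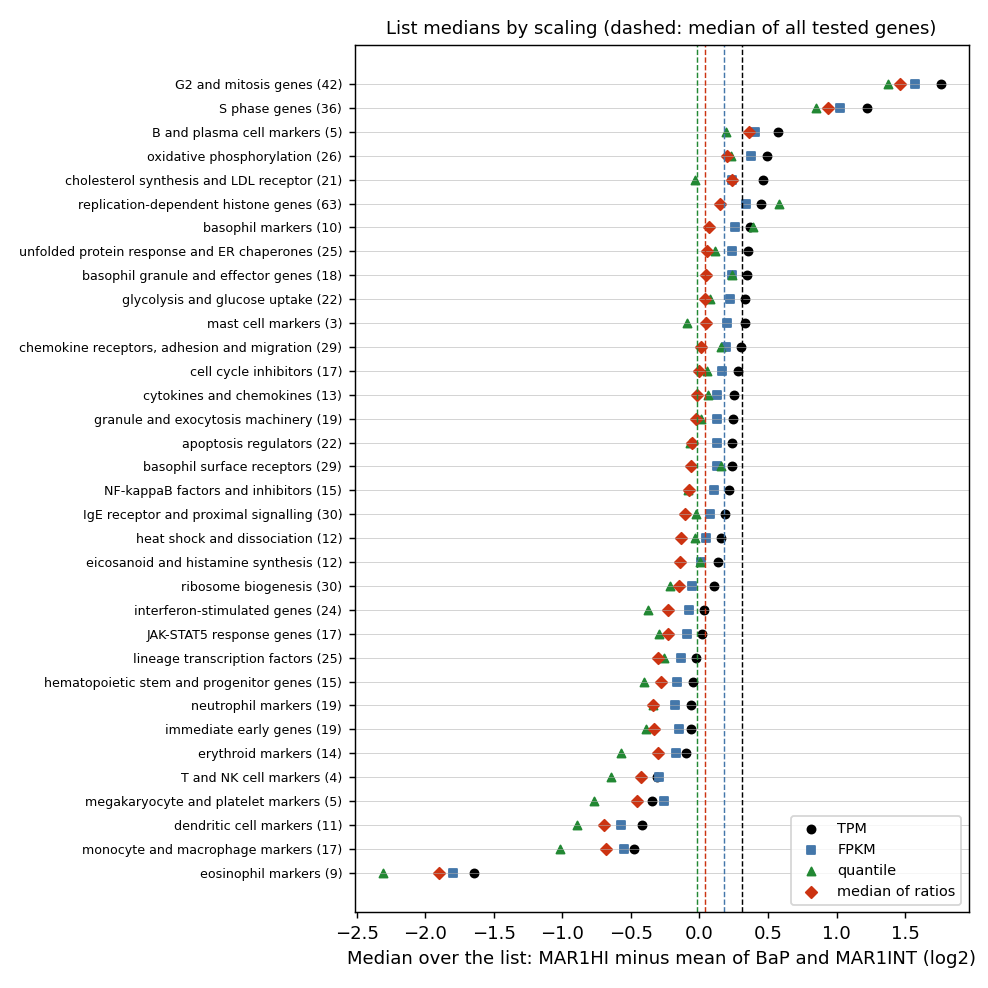
Median difference of MAR1HI from the mean of BaP and MAR1INT (log2) over the tested members of each gene list, whose number is in parentheses, under 4 scalings, with the medians of all tested genes as dashed lines. The G2 and mitosis list lies to the right at 1.37 to 1.76, the S phase list follows, and the eosinophil marker list lies to the left at -1.64 in TPM.

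In TPM few genes were low in MAR1HI alone, but after quantile normalization troughs outnumbered peaks (922 to 616), and after median-of-ratios scaling there were 636 and 655. The naming rule gave 3 troughs. Adgre1, which encodes the macrophage and eosinophil surface antigen F4/80 (chromosome 17, 57358686 to 57483529), was at 6.51 and 7.38 TPM in MAR1HI, against 41.6 and 24.8 in BaP and 25.5 and 47.6 in MAR1INT. Both MAR1HI libraries were well below all 4 others, which overlapped. The difference was -2.12 log2 (SE 0.35, limma adjusted p = 0.0204), with -2.06 against BaP (adjusted p = 0.0361) and -2.18 against MAR1INT (adjusted p = 0.00741). It was not called after median-of-ratios scaling (adjusted p = 0.0632).

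Markers of other cells that could be in the gates were measured beside it. The summed TPM of 18 monocyte and macrophage markers was 905 to 1136 in BaP, 426 to 522 in MAR1HI and 404 to 458 in MAR1INT. That of 11 eosinophil markers was 1297 to 2288 in BaP, 479 to 671 in MAR1HI and 667 to 775 in MAR1INT. Alox15, also in the eicosanoid list, made up most of the latter 2. It was at 370 and 513 TPM in MAR1HI, 454 and 427 in MAR1INT and 122 and 146 in BaP. Epx, Ear1 and Ear6 ran the other way, highest in BaP. Both sums were highest in BaP. Adgre1, itself among the monocyte and macrophage markers, was at like levels in BaP and MAR1INT. In bulk samples fewer cells of a type and less RNA per cell cannot be told apart. The 14 dendritic cell markers summed to 103 and 93.9 TPM in MAR1HI, against 1038 and 402 in BaP and 31.8 and 41.7 in MAR1INT. The 19 neutrophil markers summed to 5420.1 and 4341 TPM in MAR1HI, against 6476 and 11930.2 in BaP and 4837 and 4197 in MAR1INT. These sums, too, were highest in BaP. The 10 mast cell markers, Kit among them, summed to 18.8 and 23.9 TPM in MAR1HI, against 63.8 and 57.5 in BaP and 6.18 and 16.5 in MAR1INT, and Tpsab1, Mrgprb1 and Mcpt9 were the 3 of them at 0 in all libraries. The 10 basophil markers summed to 22055 and 18426 TPM in MAR1HI, against 17210.3 and 22074 in BaP and 14554 and 11838 in MAR1INT. MAR1INT was lowest in this sum, in which abundant genes such as Mcpt8 and Cpa3 weigh most. The median TPM of the 10 was instead lowest in BaP. It was 934 and 1107 in MAR1HI, against 652 and 690 in BaP and 789 and 774 in MAR1INT. B and plasma cell markers summed to 48.4 and 46.6 TPM in MAR1HI, against 25.8 and 31.4 in BaP and 31.2 and 15.0 in MAR1INT. Erythroid markers summed to 1275 and 667 TPM in MAR1HI, against 1643 and 2458 in BaP and 2821 and 1287 in MAR1INT. Megakaryocyte and platelet markers summed to 421 and 546 in MAR1HI, against 269 and 282 in BaP and 446 and 349 in MAR1INT. Most of this sum was Itga2b, at 398 and 529 TPM in MAR1HI, 238 and 261 in BaP and 436 and 338 in MAR1INT. T and NK cell markers summed to 198 and 200 in MAR1HI, against 375 and 391 in BaP and 37.5 and 51.5 in MAR1INT. Nearly all of this was Nkg7, at 194 and 194 TPM in MAR1HI, 371 and 380 in BaP and 32.3 and 51.5 in MAR1INT. The other tested members, Cd4, Cd3d and Klrd1, stayed at or under 4.03 TPM in every library. The part of these markers in the calls was not tested.

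The other troughs were of uncertain identity or small. Rps9, a ribosomal protein gene, was at 1843 and 1379 TPM in MAR1HI, against 2169 and 2188 in BaP and 3442 and 3580.0 in MAR1INT (-0.79 log2, limma adjusted p = 0.0422, but 0.152 in FPKM, 0.0611 after quantile normalization and 0.201 after median-of-ratios scaling). H2-Q8 and H2-Q6, class I histocompatibility genes, overlap each other. H2-Q8 was at 2.24 and 2.45 TPM in MAR1HI, against 3.85 and 5.49 in BaP and 22.4 and 21.7 in MAR1INT. It was called under all 4 scalings (-1.77 log2 in TPM, limma adjusted p = 0.0372), but not against BaP alone (-0.75, adjusted p = 0.385). H2-Q6 was at 89.8 and 125 TPM in MAR1HI and 0 in both MAR1INT libraries. The histone gene H4bc24 was at 70.5 and 0.461 TPM in MAR1HI, against 2741 and 3603 in BaP and 2518 and 2462 in MAR1INT, but near-identical histone copies share reads. Neither H4bc24 nor Snora61 was called after quantile normalization or median-of-ratios scaling. Snora61, a small nucleolar RNA inside Snhg12, was at 226 and 169 TPM in MAR1HI, against 519 and 402 in BaP and 392 and 472 in MAR1INT.

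Of the 6 lower calls that were not troughs, Epx, Clec4b1, Scarna13 and Bcl2a1d were high in BaP, and Snord22 and Mir5136 were highest in MAR1INT. Epx, the eosinophil peroxidase gene, was at 0.314 and 0.277 TPM in MAR1HI, against 64.9 and 33.3 in BaP and 0 in both MAR1INT libraries. Clec4b1, a C-type lectin gene, was at 46.9 and 32.9 TPM in BaP and 0 in the 4 others. Scarna13 was at 239.9 and 208 TPM in BaP and 0 in the 4 others, whereas Mir3069 at the same locus was near 0 in BaP (0.216 and 0.215) and at 125 and 85.1 in MAR1HI. The 2 entries overlap and their levels cannot be told apart.

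Of the immediate early genes, limma called 0 of 19 in TPM (0 higher and 3 lower at an unadjusted p under 0.05), and 3 were troughs, where 1.27% of tested genes were. Myc, the growth regulator, was at 28.0 and 25.1 TPM in MAR1HI, against 48.4 and 47.7 in BaP and 79.9 and 58.5 in MAR1INT. MAR1HI lay below both other groups, and the difference of -1.09 log2 just missed the threshold (adjusted p = 0.0512), though it passed in FPKM (adjusted p = 0.0454). Klf2, a quiescence-linked transcription factor gene, was at 0.960 and 1.22 TPM in MAR1HI, against 2.27 and 3.92 in BaP and 8.64 and 8.73 in MAR1INT (adjusted p = 0.066). The smallest p that an exact permutation test of 2 against 4 libraries can give is 0.0667, so no single gene was tested that way.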

How the data were processed

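RNA was sequenced from 6 libraries of sorted mouse marrow cells in 3 groups of 2, taken from the labels. Per the submitters' processing notes, the authors used Trimmomatic, HISAT2 and StringTie with build mm10, and versions and options are not given in the sources used here. Per the labels, libraries were made by capture of RNA. Per the file headers, the deposited values are coverage (a signal), FPKM and TPM for each gene. Values in several parts of 1 ID (310 IDs) were summed, and 24462 of 24532 IDs matched a symbol. With no counts, no counting interval is given. On log2(TPM + 1), limma 3.58.1 in R 4.3.3 was fitted with 1 term per group over 6 libraries (empirical Bayes with a trend), with MAR1HI weighted against the mean of BaP and MAR1INT. The fit was tested on simulated data. Tables and figures were made in Python 3.11.15. Genes were named by rank among called peaks and troughs that held under 4 scalings, as sort genes, or by smallest adjusted p in a list, and others are said to be chosen after their values were seen. The contrast, the members and the lists were chosen with earlier results of these data known. Promoters came from RefSeq, GRCm38.p6. Alternatives were other scalings, pseudocounts, filters, fits and each library left out, and 1, testing genes above 0 in all 6 libraries, was added after seeing the data.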

Additional observations from a re-analysis of the deposited data

How the results depend on the processing

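The log2 differences of the 123 called peaks kept their sign in every alternative that tested them. With other pseudocounts, filters and fits, and with libraries left out, the definition of a peak requires this. The calls did not persist in all. Genes called higher, lower, as peaks and as troughs numbered 126, 5, 61 and 3 with a pseudocount of 0.1. With no filter on low values 0 were called higher or lower (1826 and 271 at an unadjusted p under 0.05), 0 as peaks and 0 as troughs. With FPKM 150 were called higher, 69 as called peaks and 4 as called troughs, with 260 troughs. With quantile normalization 66 were called higher and 29 as called peaks, with 616 peaks and 922 troughs. With median-of-ratios scaling 52 were called higher, 5 lower, 20 as called peaks and 2 as called troughs, with 655 peaks and 636 troughs. With a mean TPM of 5 or more 23 were called lower and 11 as called troughs, and without histone genes in the scaling 8 and 4. With only genes above 0 in all 6 libraries, 29 were called lower and 19 as called troughs. MAR1HI against BaP gave 282 calls, and 89 with the smaller pseudocount, 4 with no filter, 448 with genes above 0 in all 6 libraries, 104 with no trend and 1062 with only those 2 groups in the fit. MAR1HI against MAR1INT gave 1900, and 562 with no filter. The cause of each change was not tested.

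Leaving out 1 library at a time gave 0 to 1170 genes called higher, 1 to 145 lower, 1543 to 5081 peaks, 210 to 754 troughs, 0 to 487 called peaks, 1 to 62 called troughs, 3 to 1092 calls against BaP and 239 to 2611 against MAR1INT. The lone library of a group is then assumed to vary like the others.

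Uncalled differences changed sign in 11 named genes. With median-of-ratios scaling Ms4a2 was at -0.038, Cd200r3 at -0.16 and Hsp90ab1 at -0.12. With quantile normalization Tpsb2 was at -0.032 and Hs3st1 at -0.091. With a pseudocount of 0.1 Cd34 was at 1.16 and Kit at 0.10, and without histone genes in the scaling Cd34 was at 0.027. Leaving out 1 library gave -0.35 to 0.25 for Cd34, -0.060 to 0.42 for Hsp90ab1, -0.96 to 2.10 for Jchain, -0.95 to 0.87 for Cd3d, -0.73 to 0.034 for Tubb1 and -1.02 to 0.035 for Ppbp.

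Replicate numbers are shared across groups. With a replicate block 210 genes were called higher and 12 lower, with 117 called peaks. Deviations correlated over genes at 0.15 between BaP and MAR1HI, -0.09 between BaP and MAR1INT and -0.06 between MAR1HI and MAR1INT. Whether equal numbers share a mouse, pool or batch is not stated, and these correlations cannot decide it. Having 2 libraries per group limits precision, and depth in reads is unknown.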
